A study of Mus musculus with 16 samples.

Results

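The CD8+ T cells of the matrix labelled 24-week spleen were compared with those of the 3-week kidney allograft in mice that accepted the transplant. This pair of matrices was chosen because its activated profiles were the closest. Cells were kept when they held at least 1 unique molecular identifier (UMI, the tag of 1 captured mRNA molecule) of Cd8a or Cd8b1 and none of Cd4, the B cell gene Cd79a, or the myeloid gene Lyz2. This left 3999 of 4538 cells in the matrix labelled 24-week spleen and 18304 of 22206 cells in the 3-week graft, which made 22303 of the 72639 cells in the 9 CD8+ T cell matrices of the series. The study followed male B6 (C57BL/6J) wild-type recipients of DBA/2J kidneys that were accepted, at 1, 3, and 24 weeks after transplantation, and used droplet scRNA-seq of viable CD45+ cells. Graft cells came from kidneys digested with collagenase, and spleen cells came from tissue ground through a strainer and freed of red blood cells. The barcodes carry 3 library tags at 24 weeks and 5 tags at 3 weeks, and these are the numbers of mice of the study, so that each tag was taken as 1 mouse. Nothing in the labels ties a tag to an animal, and p-values measure the spread between these libraries. Both groups have the same recipient strain, donor strain, and outcome by their labels, and they differ by label in both tissue and time, so that the 2 cannot be told apart. The CD8+ T cells labelled 24-week graft (1722 of 4033 cells, 3 libraries) were treated in the same way, because a comparison of 24-week spleen with 3-week graft would rest on them if the 24-week tissue labels were exchanged. That matrix was mixed as deposited, with a Cd8a or Cd8b1 UMI in 46.2% to 49.2% and a Cd4 UMI in 20.3% to 24.3% of the cells of a library, against 93.4% to 95.3% and 1.30% to 2.07% in the matrix labelled 24-week spleen and 96.3% to 97.0% and 1.01% to 1.39% in the 3-week graft. The CD8+ T cell matrix of the 3-week spleen (2324 of 5891 cells, 5 libraries) was mixed as well. It had a Cd8a or Cd8b1 UMI in 44.0% to 51.8% and a Cd4 UMI in 19.1% to 24.8%. A Lyz2 UMI was in 2.20% to 5.29% of the cells of a library labelled 24-week spleen and in 10.2% to 18.9% in the 3-week graft. More graft cells were thus left out for this gene.

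CD8+ T cells recognize peptides on MHC class I and kill target cells with perforin and granzymes or act through cytokines such as interferon-γ. Naive and central memory CD8+ T cells recirculate through lymphoid organs and express Tcf7, Lef1, Klf2, and Ccr7, and cells that have met antigen switch on effector genes and inhibitory receptors. Long antigen exposure is accompanied by sustained PD-1 (Pdcd1) and Tox, and cells that settle in tissues carry integrins such as CD103 (Itgae) and CD49a (Itga1) and the chemokine receptor Cxcr6. In a kidney allograft, such cells face donor antigen for as long as the graft stays in place.

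The summed UMIs of a library ranged from 3023024 to 4546990 in the libraries labelled 24-week spleen and from 7379166 to 9624919 in the 3-week graft. The median cell of a library held 2398 to 2735 and 1964 to 2980 UMIs. Library 1 of the 3-week graft was at 2980. The other graft libraries were at 1964 to 2206, below every library labelled 24-week spleen. Ribosomal protein genes took 27.8% to 29.7% and 26.2% to 27.5% of the UMIs of the median cell, and mitochondrial genes took 3.34% to 3.64% and 1.92% to 2.20%. The cells labelled 24-week graft differed from both, with 43.2% to 44.6% ribosomal protein UMIs and medians of 4443 to 6069 UMIs per cell. Those of the 3-week spleen also differed from both, with 40.2% to 42.4% and medians of 3500.5 to 5260 UMIs. A library of the first group shared at most 3 of its cell barcodes with a library of the other, 0.215% of the smaller library. T cell markers, without the genes that chose the cells, summed to 7781 to 7963 CPM (UMIs per 1000000) in the libraries labelled 24-week spleen and to 7612 to 8593 CPM in the 3-week graft, with all 6 genes detected in both. Library 1 of the 3-week graft stood apart from the other 4 in 8 of the genes and shares described here, and without it 1172 genes were higher and 4199 lower instead of 1077 and 4013. Of 20 genes of the kidney parenchyma, 14 had a UMI in the cells labelled 24-week spleen and 20 in the 3-week graft. In the cells labelled 24-week graft 4 of the 20 genes had one, and in the 3-week spleen 3 did, at total UMIs (9111051 and 10051887) near those of the cells labelled 24-week spleen (11382310). The sum of the 20 genes ran the other way, at 11.3 to 13.4 CPM in the libraries labelled 24-week spleen, 13.1 to 19.2 CPM in the 3-week graft, 32.0 to 42.0 CPM in those labelled 24-week graft, and 35.6 to 46.4 CPM in the 3-week spleen. Atp1b1 alone, a sodium pump subunit that cells outside the kidney also use, made up 31.5 to 41.6 CPM and 35.0 to 45.9 CPM of the last 2 sums. Without it, a choice made after seeing the data, the sums were 6.03 to 7.61, 8.29 to 15.4, 0.404 to 0.718, and 0 to 0.574 CPM, the last 2 below the worth of 3 UMIs of a library. Markers of other cells also differed between the groups. Myeloid markers summed to 243 to 264 CPM against 477 to 859 CPM, and NK cell markers to 99.2 to 127 CPM against 324 to 704 CPM. Both lists hold Fcer1g, and without it the sums were 148 to 189 CPM against 177 to 239 CPM for the myeloid list and 19.9 to 24.8 CPM against 23.2 to 64.8 CPM for the NK list, with overlap in both. Markers of γδ T cells summed to 302 to 317 CPM against 151 to 197 CPM, with Sox13 at 0 in both groups. The CD4+ T cell genes other than Cd4 summed to 317 to 393 CPM against 233 to 317 CPM, and endothelial and platelet genes to at most 2.60 CPM in any library. The part of these cells in the results was not tested.

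Of 18039 genes present in both matrices, 11157 passed the filter on low counts and were tested by edgeR's quasi-likelihood test on UMIs summed per library. With plain library totals, 1077 genes (9.65% of those tested) were higher and 4013 genes (36.0%) were lower in the libraries labelled 24-week spleen, at an adjusted p below 0.05. The split depended on the scaling. With TMM factors, which set the typical gene rather than the total equal, 2100 genes were higher and 1872 were lower. The median log2 fold change of all genes was -0.23 with plain totals and -0.01 with TMM factors. All 1077 genes called higher kept that call with TMM factors, as did 1872 of the 4013 genes called lower. In what follows, a gene is said to have risen (background 9.65% of the genes tested) or fallen (background 16.8%) at 24 weeks only when it passed under both scalings. Fold changes are given as log2 on plain totals with their SE, and are to be read against the median of -0.23. In summed UMIs, fewer cells with a transcript and less RNA per cell cannot be told apart. The libraries of the groups did not overlap in CPM for 4997 of the 11157 genes (44.8%).

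The shift of the typical gene varied with intron length. The median log2 fold change was -0.09 in the 1104 genes with the shortest introns and -0.32 in the 1105 genes with the longest, and it was lower in each of the groups with more than 3687 bases of intron than in the 2 shortest groups. For the cells labelled 24-week graft the same medians were -0.41 and -0.83. Because the pair was chosen as the closest activated profiles, the likeness described next is not a result. Most abundant genes were within 2-fold. Of 1579 genes whose mean reached 100 CPM in a group, 1526 (96.6%) lay within 2-fold of each other, whereas 1072 of 1595 genes (67.2%) did so when the cells labelled 24-week graft took the place of those labelled spleen. Changes past 1 log2 unit were found in 768 of the 10968 genes tested in both comparisons (7.002%) and in 3665 genes (33.4%) with the other 24-week matrix.

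**Figure D1:**
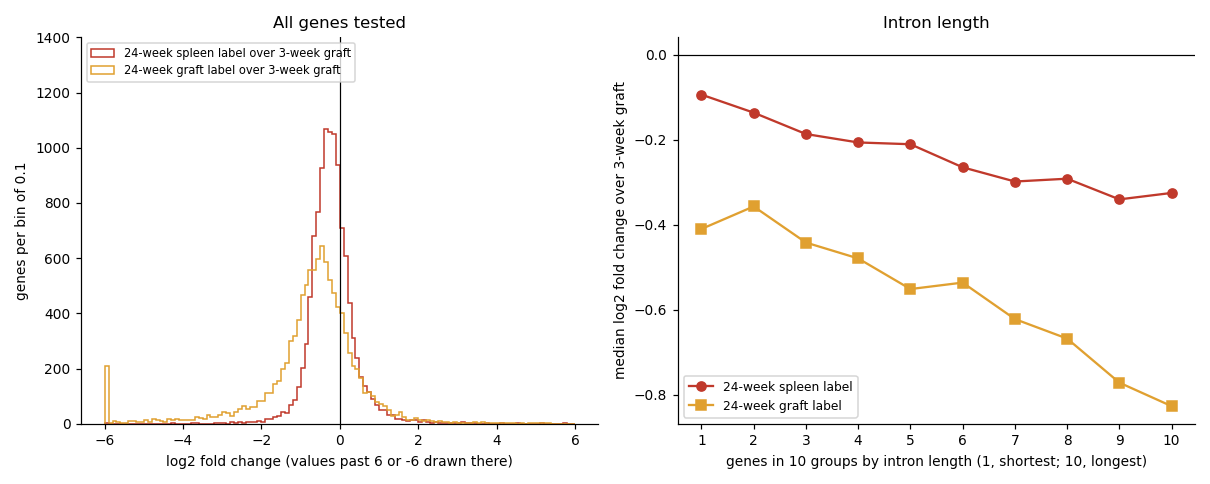
Left, number of genes by log2 fold change over the 3-week graft (plain library totals, bins of 0.1), for the libraries labelled 24-week spleen (red) and for those labelled 24-week graft (orange), both set against the same 5 libraries. Right, the median log2 fold change in 10 groups of genes by total intron length, which was -0.09 in the shortest and -0.32 in the longest group for the spleen label and -0.41 and -0.83 for the graft label.

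Several abundant chemokine and cytokine genes were higher in the libraries labelled 24-week spleen. Xcl1, the chemokine that attracts cross-presenting dendritic cells (Ensembl ENSMUSG00000026573.7, GRCm38 chr1:164931644-164935527, minus strand), was at 1325, 1234, and 1394 CPM in the libraries labelled 24-week spleen and at 359, 245, 347, 389, and 347 CPM in the 3-week graft. Every 24-week library lay above every graft library, at a log2 fold change of 1.97 ± 0.11 (SE, adjusted p = 1.91e-08). This separation was a condition of the place of Xcl1 among the largest increases. Ccl4, an inflammatory chemokine, was at 1581, 1309, and 1233 CPM against 1138, 749.7, 805, 769.7, and 627 CPM (log2 fold change 0.75 ± 0.14, adjusted p = 5.33e-04), again without overlap. Ccl5, the most abundant of these genes, was at 14599 to 17156 CPM and 11739 to 13800.0 CPM and rose by 0.31 on the log2 scale. Ifng, which encodes interferon-γ, was at 301, 278, and 274 CPM against 217, 180.2, 179, 209.6, and 189 CPM (log2 fold change 0.54 ± 0.08, adjusted p = 7.98e-05). Il2 was low throughout, at 2.65 to 6.56 CPM against 0.649 to 1.49 CPM (log2 fold change 2.03 ± 0.34, adjusted p = 2.49e-04), where 3 UMIs of a library amount to 0.660 to 0.992 CPM in the first group and 0.312 to 0.407 CPM in the graft. Of 13 tested members of this list, 7 rose and 1 fell (median log2 fold change 0.51), against 9.65% and 16.8% of all genes tested.

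Granule genes moved in both directions. Granzyme B (Gzmb) was at 562, 537, and 619.6 CPM in the libraries labelled 24-week spleen and at 678, 889, 995, 838, and 939 CPM in the graft, and fell at -0.60 ± 0.10 (SE, adjusted p = 3.06e-04). Perforin (Prf1), the pore-forming protein through which granzymes enter the target, was at 80.4 to 99.2 CPM against 123 to 141 CPM and fell at -0.51 ± 0.09 (SE, adjusted p = 2.49e-04). Granzyme K (Gzmk), a granzyme of memory-like cells, went the other way, at 60.7, 105, and 85.0 CPM against 57.0, 32.8, 22.7, 31.1, and 37.2 CPM (log2 fold change 1.19 ± 0.22, adjusted p = 5.53e-04). The groups did not overlap for any of these 3 genes. Granzyme A (Gzma) was at 543, 519.7, and 328 CPM against 121, 151, 475, 227, and 270.0 CPM, with overlap, and the log2 fold change of Gzma was 0.90 ± 0.31 (SE, adjusted p = 0.0276). It did not pass without the 24-week library 1 (0.76) or 2 (0.81) or without the graft library 2 (0.76) or 4 (0.86). In the list of cytotoxic granule genes, 4 of 14 tested members rose and 4 fell (median -0.38).

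**Figure D2:**
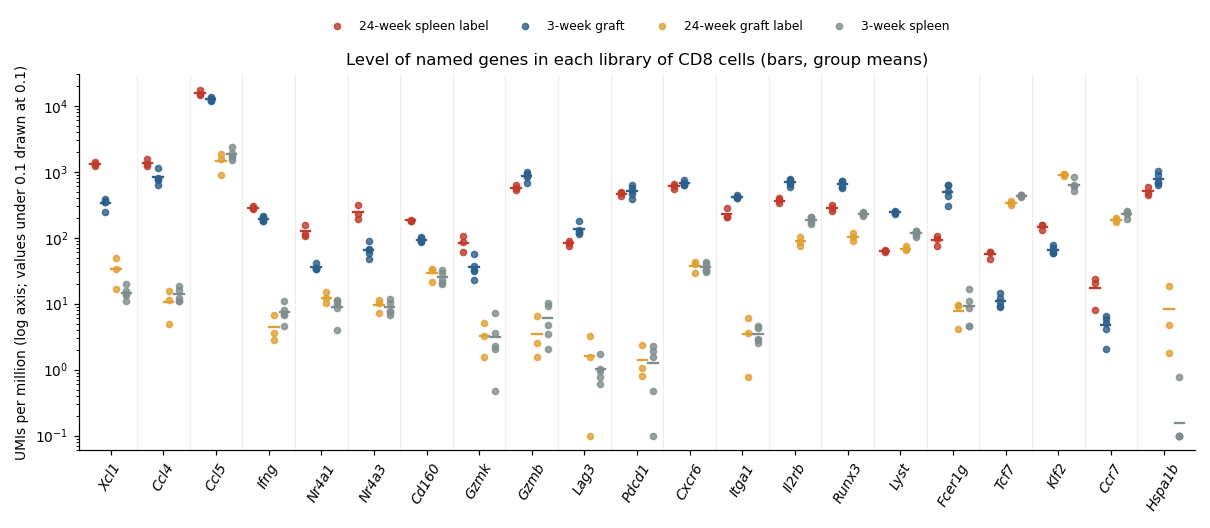
Level of named genes in CPM (log axis) in each library of CD8+ T cells, with bars at the group means, for the cells labelled 24-week spleen (red, 3 libraries), the 3-week graft (blue, 5), the cells labelled 24-week graft (orange, 3), and the 3-week spleen (grey, 5). Red and blue points lie near each other for Pdcd1 and Cxcr6, whereas the orange points lie near the grey points for Pdcd1 (0.807 to 2.34 CPM in orange) and most other genes.

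Inhibitory receptors, which dampen T cell signaling, moved in both directions. PD-1 (Pdcd1) was at 501, 425, and 474 CPM in the libraries labelled 24-week spleen and at 387, 627, 509.5, 461, and 574 CPM in the graft, so that the ranges overlapped, and its log2 fold change of -0.13 ± 0.12 (SE, adjusted p = 0.403) did not pass. Lag3, a receptor for MHC class II, was at 76.1, 89.0, and 83.4 CPM against 182, 114, 132, 123, and 124 CPM and fell at -0.71 ± 0.13 (SE, adjusted p = 5.99e-04). Cd244a, the receptor 2B4, was at 72.8 to 90.2 CPM against 146 to 159 CPM and fell at -0.92 ± 0.08 (SE, adjusted p = 1.08e-06). Cd160, a receptor for HVEM, was at 181, 179.6, and 186 CPM against 99.5, 84.7, 89.3, 102, and 90.0 CPM and rose at 0.97 ± 0.08 (SE, adjusted p = 2.87e-07), and Cd200r1, the receptor for CD200, was at 82.7 to 97.2 CPM against 51.1 to 59.4 CPM and rose at 0.70 ± 0.08 (SE, adjusted p = 1.50e-05). Lag3 and Cd244a on one side and Cd160 and Cd200r1 on the other did not overlap between the groups. Of 10 tested members, 5 rose and 3 fell (median 0.13).

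Among transcription factors of activation and exhaustion, Nr4a1 and Nr4a3, which T cell receptor signaling induces, were higher at 24 weeks. Nr4a1 was at 154, 114, and 106 CPM in the libraries labelled 24-week spleen and at 33.4, 34.6, 34.4, 33.3, and 41.5 CPM in the graft (log2 fold change 1.82 ± 0.11, adjusted p = 4.98e-08). Nr4a3 was at 313, 189.9, and 226 CPM against 47.8, 64.2, 58.6, 68.5, and 89.1 CPM (log2 fold change 1.90 ± 0.17, adjusted p = 8.37e-07). Both were separate in every library, which was a condition of their place among the largest increases. Maf, a factor that promotes Il10 transcription, was at 47.3 to 87.9 CPM against 13.3 to 29.1 CPM and rose at 1.85 ± 0.23 (SE, adjusted p = 1.73e-05). Irf8, an interferon regulatory factor, was at 23.6 to 30.4 CPM against 60.03 to 86.3 CPM and fell at -1.43 ± 0.13 (SE, adjusted p = 1.30e-06). Tox, the factor tied to exhaustion, was at 314, 260.0, and 258 CPM against 404, 304, 299, 318, and 329 CPM, and the log2 fold change of Tox was -0.25 ± 0.10 (SE, adjusted p = 0.0548). It passed without the 24-week library 1 (-0.35) and without the graft library 2 (-0.28) or 3 (-0.29). In this list 7 of 14 tested members rose and 1 fell (median 0.37).

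Of 13 tested genes of naive and central memory cells, 9 rose, 1 fell, and 3 did not pass under both scalings, Il7r and Il6ra among them. Tcf7, which encodes TCF-1 (ENSMUSG00000000782.15, GRCm38 chr11:52252371-52283014, minus strand), was at 47.9, 59.9, and 60.3 CPM against 14.4, 9.22, 10.7, 12.3, and 9.05 CPM (log2 fold change 2.31 ± 0.14, adjusted p = 4.34e-08). Klf2, the factor that keeps lymphocytes in circulation, was at 154, 156, and 131 CPM against 77.5, 68.7, 59.2, 63.7, and 58.4 CPM (log2 fold change 1.16 ± 0.10, adjusted p = 5.52e-07). Ccr7, the receptor for entry into lymph nodes, was at 23.8, 20.8, and 8.13 CPM against 2.08, 6.50, 4.11, 5.17, and 5.92 CPM (log2 fold change 1.91 ± 0.32, adjusted p = 2.38e-04). The groups did not overlap in any of the 3 genes. Id3, an inhibitor of E proteins, at 12.3 to 17.3 CPM against 2.26 to 4.98 CPM and Dapl1 at 7.28 to 8.80 CPM against 0.727 to 2.82 CPM rose as well. Lef1, the partner of TCF-1, was at 11.9, 15.2, and 17.8 CPM against 13.3, 5.96, 8.44, 7.41, and 4.42 CPM, with overlap, and the log2 fold change of Lef1 of 0.90 ± 0.28 (SE, adjusted p = 0.0165) did not pass without the 24-week library 2 (0.88) or 3 (0.74). Il7r, the receptor for the survival cytokine IL-7, was at 205 to 248 CPM against 160.4 to 319.9 CPM, and the log2 fold change of Il7r was 0.11 ± 0.17 (SE, adjusted p = 0.622) with all libraries and passed at 0.30 without the graft library 1. In the list, 9 of 13 tested members rose and 1 fell (median 0.99), against 9.65% and 16.8% of all genes tested. In the cells labelled 24-week graft these genes stood on another level, with 310.1 to 364 CPM of Tcf7, 858 to 916 CPM of Klf2, and 170.3 to 201 CPM of Ccr7. In the 3-week spleen Tcf7 was at 420 to 448 CPM and Ccr7 at 195 to 250 CPM.

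Of the residency genes, Cxcr6 and Itgae were close in level and others differed widely. Cxcr6 was at 655, 551, and 614 CPM in the libraries labelled 24-week spleen and at 749, 637, 678, 648, and 626 CPM in the graft (log2 fold change -0.14 ± 0.08, adjusted p = 0.165), with overlap. CD103 (Itgae), which binds E-cadherin on epithelium, was at 248.5, 201, and 186 CPM against 256, 252, 258, 228, and 224 CPM, and the log2 fold change of Itgae was -0.20 ± 0.09 (SE, adjusted p = 0.0916), which passed at -0.33 without the 24-week library 1. CD49a (Itga1), a collagen receptor, was at 278, 206, and 208 CPM against 414, 400.5, 446, 399, and 409 CPM and fell at -0.84 ± 0.10 (SE, adjusted p = 9.16e-06) without overlap. Runx3, a factor of CD8 lineage and residency, was at 317, 250.4, and 279 CPM against 569, 732, 712, 594, and 647 CPM and fell at -1.20 ± 0.10 (SE, adjusted p = 5.44e-07), also without overlap. For Runx3 the separation was a condition of its place among the largest decreases. P2rx7, a channel gated by extracellular ATP, was at 25.5, 26.5, and 28.6 CPM against 4.99, 1.63, 2.38, 2.94, and 3.55 CPM and rose at 3.08 ± 0.21 (SE, adjusted p = 1.28e-07). Of 12 tested members of the residency list, 4 rose and 2 fell (median -0.17). Of 8 members of the adenosine and ATP list, which includes P2rx7, 1 rose and 1 fell (median -0.17).

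Homing receptors beyond these showed a mixed picture. The β7 integrin chain (Itgb7), which pairs with α4 or with CD103, was at 85.0 to 93.9 CPM against 37.0 to 44.8 CPM and rose at 1.14 ± 0.08 (SE, adjusted p = 1.34e-07), while its partner chain Itga4 was at 419 to 452 CPM against 589 to 796 CPM and fell at -0.61 ± 0.09 (SE, adjusted p = 1.10e-04). Itgav, a chain of receptors that activate latent TGF-β, fell too, from 108 to 195 CPM in the graft to 81.0 to 89.1 CPM. Among integrins 1 of 10 rose and 3 fell (median -0.31). Ccr2, a receptor for monocyte chemokines, was at 8.80, 13.6, and 11.3 CPM against 57.4, 34.4, 31.0, 25.4, and 33.3 CPM and fell at -1.73 ± 0.27 (SE, adjusted p = 1.28e-04). Cxcr4, the receptor for CXCL12, was at 20.2 to 34.4 CPM against 8.11 to 13.7 CPM and rose at 1.28 ± 0.18 (SE, adjusted p = 6.06e-05). Among chemokine receptors 4 of 10 rose and 1 fell (median 0.05).

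In the list of circulating effector memory genes, 2 of 9 tested members rose, Ccl5 and Klf3 (9.68 to 19.2 CPM against 5.38 to 9.14 CPM), and 0 fell (median 0.09). Cd7 was at 301 to 338 CPM against 218 to 370.0 CPM (log2 fold change 0.08 ± 0.13, adjusted p = 0.624) and did not pass under either scaling. Id2, a factor of effector cells, was at 498 to 552 CPM against 571 to 710.5 CPM without overlap, and the log2 fold change of Id2 passed with plain totals (log2 fold change -0.27 ± 0.08, adjusted p = 0.0157) but not with TMM factors (-0.04, adjusted p = 0.765) nor without the 24-week library 2 (-0.23). Plac8, a gene of circulating lymphocytes, was at 66.0 to 82.4 CPM against 77.2 to 136 CPM, with overlap, and also passed with plain totals only (log2 fold change -0.63 ± 0.15, adjusted p = 0.00335).

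Of the genes ascribed to regulatory CD8+ T cells, Il2rb fell and 5 others rose. Il2rb, which encodes CD122, the shared β chain of the IL-2 and IL-15 receptors, was at 370.1, 333, and 395 CPM in the libraries labelled 24-week spleen and at 580.1, 655, 754, 683, and 764 CPM in the graft and fell at -0.91 ± 0.09 (SE, adjusted p = 3.99e-06). Fgl2, which encodes a secreted inhibitory molecule, was at 328, 265, and 303 CPM against 336, 387, 398, 374, and 438 CPM without overlap. Its log2 fold change passed with plain totals (log2 fold change -0.37 ± 0.09, adjusted p = 0.00412) but not with TMM factors (-0.14, adjusted p = 0.221). Klra9, an inhibitory Ly49 receptor for MHC class I, was at 39.8, 28.4, and 28.9 CPM against 0.519, 1.22, 1.083, 1.53, and 0.431 CPM (log2 fold change 5.10 ± 0.24, adjusted p = 2.86e-09), a gene close to absent from the graft libraries. Its family has near-identical copies among which reads may be split, so that the member is uncertain. Tnfrsf4 (OX40) was at 12.9 to 23.2 CPM against 4.68 to 10.98 CPM and rose, and Foxp3, the factor of regulatory T cells, was at 1.98 to 4.96 CPM against 0.542 to 1.45 CPM, low in both groups. Foxp3 and Icos, both of this list and both risen, are also among the 4 CD4+ T cell markers, which summed to 317 to 393 CPM against 233 to 317 CPM. The others are Ctla4, at 143 to 187 CPM against 121 to 135 CPM, and Cd40lg, the CD40 ligand, at 4.72 to 5.62 CPM against 0.407 to 1.73 CPM, and both rose. The part of CD4+ T cells in these values was not tested. Of 11 tested members, 5 rose and 1 fell (median 0.35). Among the other cytokine receptors Il18r1, which makes cells respond to IL-18, was at 28.1 to 37.4 CPM against 55.5 to 67.1 CPM and fell at -0.99 ± 0.11 (SE, adjusted p = 5.05e-06). Of 16 cytokine receptors tested, 1 rose and 4 fell (median -0.30). Among NK lectin receptors 3 of 9 rose and 1 fell (median 0.23). Klra1, also of the Ly49 family and uncertain for the same reason, was at 2.98 to 11.8 CPM against 0.323 to 2.23 CPM and rose, and Klrc2 (NKG2C) fell from 145 to 177 CPM in the graft to 68.8 to 122 CPM.

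Genes of T cell receptor signaling differed in both directions. Ptpn6, which encodes the phosphatase SHP-1, was at 156, 134, and 147 CPM in the libraries labelled 24-week spleen and at 346, 299, 343, 331, and 274 CPM in the graft (log2 fold change -1.13 ± 0.09, adjusted p = 4.99e-07). Zap70, the kinase recruited to the T cell receptor, was at 107, 103, and 103 CPM against 184, 199, 213, 206, and 205 CPM (log2 fold change -0.95 ± 0.07, adjusted p = 3.03e-07). The costimulatory receptor Cd28 rose, at 185 to 212 CPM against 95.5 to 142 CPM (log2 fold change 0.80 ± 0.11, adjusted p = 3.55e-05). Of 18 tested members 3 rose and 6 fell (median -0.26, close to that of all genes), and with plain totals alone 12 were lower. Interferon response genes moved both ways, with 7 of 22 higher and 2 lower (median 0.02). Isg15, a ubiquitin-like protein that type I interferon induces, was at 136, 115, and 119 CPM against 37.2, 54.5, 54.0, 62.9, and 65.7 CPM (log2 fold change 1.17 ± 0.14, adjusted p = 1.09e-05), and Ifi27l2a at 367 to 434 CPM against 213 to 273 CPM rose as well. In MHC class I and peptide loading 5 of 13 members rose and 3 fell (median 0.07). H2-T23, which encodes the nonclassical class I molecule Qa-1 that presents to CD94/NKG2 receptors, was at 241, 271, and 259 CPM against 125, 79.0, 86.2, 91.8, and 91.0 CPM (log2 fold change 1.44 ± 0.11, adjusted p = 3.37e-07), and the peptide transporter Tap1 was at 96.3 to 109 CPM against 139 to 156 CPM and fell at -0.53 ± 0.08 (SE, adjusted p = 6.30e-05). Class I genes resemble each other closely, so that their counts carry some uncertainty.

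Immediate early genes, which cells switch on within minutes of a stimulus, did not move as one. Junb was at 1887, 1388, and 1338 CPM against 662, 748, 749, 727, and 737 CPM (log2 fold change 1.09 ± 0.09, adjusted p = 8.37e-07) and the phosphatase Dusp2 at 693 to 754 CPM against 375 to 476 CPM (log2 fold change 0.80 ± 0.08, adjusted p = 1.94e-06), both higher at 24 weeks without overlap. Jun, at 435 to 524 CPM against 679 to 881 CPM (log2 fold change -0.70 ± 0.09, adjusted p = 2.18e-05), and Fosb, at 77.6 to 123 CPM against 140.2 to 177 CPM (log2 fold change -0.79 ± 0.13, adjusted p = 2.35e-04), were lower, also without overlap. Of 17 tested members 10 rose and 2 fell (median 0.24).

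The inducible HSP70 genes stood out among stress genes because they were high in both groups and close to 0 in the cells labelled 24-week graft and in the 3-week spleen. Hspa1b (ENSMUSG00000090877.3, GRCm38 chr17:34956436-34959238, minus strand) was at 447, 473, and 592 CPM in the libraries labelled 24-week spleen and at 1022, 701, 639, 675, and 902 CPM in the graft. In the cells labelled 24-week graft it was at 18.6, 1.79, and 4.68 CPM, and in the 3-week spleen at 0 to 0.770 CPM, where 3 UMIs of a library amount to 1.15 to 1.81 CPM. Between the first groups it fell at -0.65 ± 0.14 (SE, adjusted p = 0.00186), without overlap, a call that DESeq2 did not make (log2 fold change of Hspa1b -0.41). Its neighbor Hspa1a, named after its values were seen because it is a near-identical copy, was at 435, 482, and 713 CPM and 777, 493, 503, 507, and 666 CPM (log2 fold change -0.12 ± 0.16, adjusted p = 0.583), against 0.359 to 2.42 CPM in the cells labelled 24-week graft. Reads of these genes may be split between the copies, and both levels are uncertain for that reason. The bases just before their starts, shown because they tell how alike the copies are and hold a match to the heat shock element, differ in 1 of 150 positions (RefSeq, GRCm38.p6, chr17:34972157-34972306 for Hspa1a and chr17:34959239-34959388 for Hspa1b, minus strand, from 150 to 1 base before the start, capitals mark GAANNTTC, which reads the same on both strands).
Hspa1a: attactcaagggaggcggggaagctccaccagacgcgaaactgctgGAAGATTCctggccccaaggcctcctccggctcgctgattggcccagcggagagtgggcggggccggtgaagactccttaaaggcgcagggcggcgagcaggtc
Hspa1b: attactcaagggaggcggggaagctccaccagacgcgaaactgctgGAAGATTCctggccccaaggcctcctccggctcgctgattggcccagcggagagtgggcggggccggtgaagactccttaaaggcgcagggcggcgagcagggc
The letters GAANNTTC were found in this window, from 150 to 1 base before the start, in 1297 of 32851 promoter entries (3.95%) and in 5 of the 8 heat shock genes of the list with an entry. Other chaperones were expressed in every group. Dnaja1, a cochaperone of HSP70, was at 1101 to 1491 CPM against 699.6 to 875 CPM (log2 fold change 0.69 ± 0.10, adjusted p = 4.72e-05) and at 357 to 954 CPM in the cells labelled 24-week graft. Hspa8, the constitutive HSC70, was at 1519 to 2044 CPM against 1405 to 2163 CPM, and the log2 fold change of Hspa8 was 0.10 ± 0.13 (SE, adjusted p = 0.541), which passed at 0.23 without the graft library 1. Hsp90aa1 was at 959.5 to 1449 CPM against 758 to 1047 CPM, and the log2 fold change of Hsp90aa1 of 0.37 ± 0.13 (SE, adjusted p = 0.0301) did not pass without the 24-week library 3 (0.16) or the graft library 2 (0.32), 3 (0.34), or 4 (0.33). Of 11 tested members 3 rose and 1 fell (median 0.04).

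Division genes fell about as often as all genes, with 2 of 15 lower and 2 higher (median 0.11) against 16.8% and 9.65% of all genes tested. Mki67, a marker of cycling cells, was at 11.7, 10.3, and 6.56 CPM in the libraries labelled 24-week spleen and at 20.99, 15.7, 20.9, 21.2, and 23.05 CPM in the graft (log2 fold change -1.10 ± 0.18, adjusted p = 1.95e-04), and Top2a, a topoisomerase of dividing cells, was at 19.4 to 28.4 CPM against 37.5 to 47.5 CPM (log2 fold change -0.79 ± 0.13, adjusted p = 1.94e-04). Stmn1, a microtubule regulator, at 21.8 to 27.1 CPM against 8.83 to 17.2 CPM, went the other way (log2 fold change 0.83 ± 0.17, adjusted p = 0.00129). Of 10 quiescence genes 6 rose and 0 fell (median 0.29), among them Klf2 and Tsc22d3, a glucocorticoid-induced gene at 169.7 to 196 CPM against 79.3 to 120.0 CPM (log2 fold change 0.91 ± 0.11, adjusted p = 1.58e-05). Btg1, an antiproliferative gene, was at 1644 to 1981 CPM against 1718 to 1991 CPM with a log2 fold change of -0.03 (adjusted p = 0.767) on plain totals and 0.20 with TMM factors (adjusted p = 0.0364). The survival gene Bcl2 fell, at 497 to 605 CPM against 766 to 887 CPM (log2 fold change -0.59 ± 0.08, adjusted p = 4.43e-05), whereas Bcl2a1b, of a family with near-identical copies, was at 233 to 259 CPM against 123 to 136 CPM and rose (log2 fold change 0.96 ± 0.07, adjusted p = 1.34e-07). Gadd45b, a stress-induced gene, rose as well, from 34.8 to 50.4 CPM in the graft to 82.1 to 89.7 CPM. In the list of survival and death genes 5 of 12 rose and 4 fell (median -0.01).

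Among metabolic genes, of 18 nuclear genes of oxidative phosphorylation 2 rose and 0 fell, with log2 fold changes from -0.19 to 0.29 (median -0.0043). In glycolysis 1 of 16 rose and 3 fell (median -0.25), near the 9.65% and 16.8% of all genes tested, and hexokinase 2 (Hk2) had the lowest value, at 5.50, 1.98, and 3.15 CPM against 6.65, 15.04, 14.0, 15.5, and 16.0 CPM (log2 fold change -1.83 ± 0.35, adjusted p = 6.10e-04). Of 13 S100, galectin, and annexin genes 2 rose and 2 fell (median -0.00027). S100a4, a calcium-binding protein, was at 1519 to 1767 CPM against 1696 to 2003 CPM, and the log2 fold change of S100a4 of -0.15 ± 0.07 (SE, adjusted p = 0.0991) passed when the 24-week library 1 (-0.21) or the graft library 1 (-0.18) was left out. It was at 9.10 to 25.4 CPM in the cells labelled 24-week graft. Galectin-3 (Lgals3) fell from 151 to 207 CPM to 99.2 to 121 CPM.

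Some of the largest increases at 100 CPM or more were in genes of uneven level within a group. Hist1h2bc, a histone gene with near-identical copies, was at 589, 229.9, and 116 CPM in the libraries labelled 24-week spleen and at 29.5, 41.1, 33.6, 40.3, and 55.2 CPM in the graft, and the log2 fold change of Hist1h2bc of 2.98 ± 0.34 (SE, adjusted p = 9.96e-06) was 2.10 without the 24-week library 1. Jchain, which joins secreted IgM and IgA in plasma cells, was at 24.9, 166, and 173 CPM against 23.1, 20.6, 14.0, 15.05, and 14.3 CPM (log2 fold change 2.78 ± 0.39, adjusted p = 5.70e-05). The 24-week library 1 was close to the graft libraries in Jchain. B cell markers, without the gene that chose the cells, summed to 368, 1523, and 1574 CPM in the same libraries and to 293 to 477 CPM in the graft, and their part in the level of Jchain was not tested. Mpp7, a scaffold gene of cell polarity, was at 250.3, 181, and 127 CPM against 39.4, 48.5, 35.8, 38.7, and 26.7 CPM (log2 fold change 2.31 ± 0.18, adjusted p = 2.87e-07). Lars2, the mitochondrial leucyl-tRNA synthetase, was at 493 to 715 CPM against 207 to 265 CPM, and the noncoding AY036118 was at 870.3 to 1322 CPM against 379 to 501 CPM.

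At the lower end stood Fcer1g, the signaling chain of Fc receptors that some activated T cells share with NK and myeloid cells (ENSMUSG00000058715.11, GRCm38 chr1:171229572-171234365, minus strand). It was at 95.01, 74.4, and 108 CPM in the libraries labelled 24-week spleen and at 300.5, 432, 639, 619.6, and 505 CPM in the graft (log2 fold change -2.43 ± 0.21, adjusted p = 8.37e-07), and it makes up most of the NK cell marker sum and most of the difference in the myeloid sum given above. Lyst, which governs the size of lytic granules, was at 63.3, 59.9, and 64.8 CPM against 246, 241, 229, 253, and 237 CPM (log2 fold change -1.94 ± 0.08, adjusted p = 3.92e-10). The graft libraries were alike in Lyst, and so were those of 24 weeks. Kcnq1ot1, a long noncoding RNA, Capg, an actin-capping gene, Cdk6, a kinase of the G1 phase, and Macf1, a cytoskeletal linker, fell by similar amounts, at log2 fold changes of -1.33, -1.23, -1.20, and -1.15. In each of these 4 genes every 24-week library lay below every graft library, which was a condition of their choice.

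The number of cells with a transcript was counted in cells downsampled to 1000 UMIs each, which left out 69 of 3999 cells labelled 24-week spleen and none of the graft. In B cells of the naive spleen (26031 cells, median 2723 UMIs before thinning), which should lack most of these transcripts, 0.0922% of the cells had a UMI of Gzmb, 0.00768% of Pdcd1, and 0.0768% of Cxcr6. These B cells come from another sample. They do not measure RNA from outside the cells in the graft or 24-week libraries. CD122 transcripts (Il2rb) were found in 29.0%, 25.9%, and 28.9% of the cells labelled 24-week spleen and in 40.5%, 43.2%, 48.6%, 43.8%, and 47.5% of the graft cells, 27.9% ± 1.76 (SD, n = 3) against 44.7% ± 3.29 (SD, n = 5). Granzyme B transcripts were found in 23.4%, 22.6%, and 24.0% against 30.8%, 36.3%, 37.6%, 34.7%, and 37.2%. CD49a transcripts (Itga1) were found in 19.9% ± 2.62 (SD, n = 3) against 32.3% ± 1.33 (SD, n = 5), Fgl2 transcripts in 23.5% ± 1.84 (SD, n = 3) against 29.8% ± 2.35 (SD, n = 5), and Lag3 transcripts in 8.31% ± 0.994 (SD, n = 3) against 12.1% ± 1.96 (SD, n = 5). All these shares were lower at 24 weeks, with no library of one group inside the range of the other. Shares of cells with Pdcd1 (34.2% ± 2.10 against 37.4% ± 5.24), Tox (24.3% ± 2.81 against 26.6% ± 3.25), Itgae (17.95% ± 2.93 against 19.7% ± 1.05), and Cxcr6 (41.9% ± 4.59 against 44.8% ± 2.40) overlapped between the groups, as did those with Ifng.

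Tcf7 transcripts were found in 3.90%, 4.81%, and 5.42% of the cells labelled 24-week spleen and in 1.04%, 0.586%, 0.814%, 0.976%, and 0.891% of the graft cells, where the naive B cells gave 0.204%. Gzmk transcripts were found in 7.91% ± 1.93 (SD, n = 3) against 3.38% ± 1.04 (SD, n = 5). Ccr7 transcripts were in 0.973% ± 0.388 (SD, n = 3) against 0.438% ± 0.116 (SD, n = 5), but B cells use this gene too (10.3%), so that both shares lay below those of the B cells. Mki67 transcripts were in 0.886% ± 0.291 (SD, n = 3) against 1.90% ± 0.293 (SD, n = 5), with 0.699% in the naive B cells, which may include dividing cells. Klrg1 and Cx3cr1, genes of circulating effector cells, were rare in both groups, at 0.132% ± 0.131 (SD, n = 3) and 0.0597% ± 0.0702 (SD, n = 5) of the cells for Klrg1 and at 1.26% ± 0.352 (SD, n = 3) and 1.13% ± 0.205 (SD, n = 5) for Cx3cr1. The naive B cells gave 0.0615% for Klrg1, near the shares in both groups.

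Cells with transcripts of both genes of a pair were counted as well. Fgl2 and Il2rb were found together in 7.46% ± 1.18 (SD, n = 3) of the cells labelled 24-week spleen and in 13.5% ± 1.87 (SD, n = 5) of the graft cells. Pdcd1 and Lag3 were found together in 3.28% ± 0.818 (SD, n = 3) against 4.97% ± 0.470 (SD, n = 5), and Itgae and Itga1 in 4.46% ± 1.29 (SD, n = 3) against 7.66% ± 0.696 (SD, n = 5). These pairs were lower at 24 weeks without overlap, whereas Itgae with Cxcr6 overlapped (8.25% ± 1.06 against 9.22% ± 0.860). The product of the single shares would give 5.57% to 7.30% and 10.8% to 15.6% for Fgl2 with Il2rb, and the pair was observed at 0.996 to 1.27 and 0.984 to 1.04 times that value, so that its difference was close to what the single shares give. Observed over product was 0.935 to 1.40 and 1.04 to 1.17 for Pdcd1 with Lag3 and 1.21 to 1.249 and 1.16 to 1.24 for Itgae with Itga1. Pdcd1 with Tcf7, the pair carried by stem-like cells under lasting antigen, was found in 1.12%, 0.787%, and 1.18% of the cells labelled 24-week spleen and in 0.337%, 0.147%, 0.302%, 0.279%, and 0.173% of the graft cells. For this pair the product would be 1.40% to 1.88% and 0.252% to 0.370%, so that the pair was observed at 0.514 to 0.802 and at 0.468 to 1.07 times that value. Over the family of 24 genes and pairs, 14 had no overlap, 4 of them higher and 10 lower at 24 weeks. Shares of cells were not counted over all genes, and in CPM 44.8% of all genes tested had no overlap. The pairs are built from the single genes and are not separate from them. Each of the 14 had p = 0.0357 by the exact two-sided permutation test, the smallest that 3 libraries against 5 allow, and 0.0612 after Benjamini-Hochberg adjustment over the 24, so that none passed 0.05. In 9 of the 14 the groups also stayed apart in the same direction with no thinning, with 500 UMIs, with all cells of the matrices, and with each library left out. The other 5 overlapped in an alternative. Without thinning these were Gzmk (means of 15.1% and 7.07%), Prf1 (20.4% and 24.7%), Fgl2 (45.8% and 51.6%), and Itgae with Itga1 (19.1% and 22.2%). With 500 UMIs they were Prf1 (4.45% and 6.10%), Fgl2 (13.2% and 16.6%), and Pdcd1 with Tcf7 (0.379% and 0.0849%), and with all cells of the matrices Gzmk (7.74% and 3.57%).

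**Figure D3:**
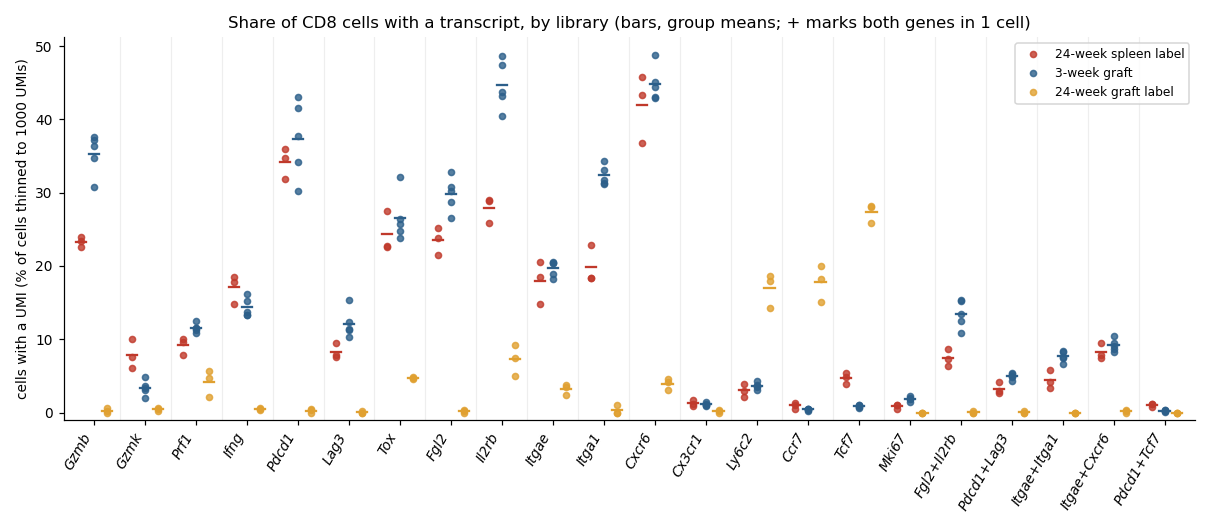
Share of cells that held a transcript of a gene, or of both genes of a pair (+), in percent of cells thinned to 1000 UMIs, for each library labelled 24-week spleen (red), of the 3-week graft (blue), and labelled 24-week graft (orange), with bars at the group means. Red points lie below blue points for Gzmb, Il2rb, and Itga1 and above them for Tcf7 and Gzmk, and orange points are near 0 for most genes but reach 25.8% to 28.1% for Tcf7.

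The 24-week tissue labels were then exchanged, and the cells labelled 24-week graft were set against the same 5 libraries of the 3-week graft. Under exchanged labels the values of the first comparison would stand, but between graft cells at 24 and at 3 weeks. The values that follow would then be those of 24-week spleen cells. Of 11210 genes tested, 1504 (13.4%) were higher and 6557 (58.5%) were lower with plain totals. Both comparisons share the graft libraries, so that their values are given side by side and their likeness is not a result. Among the 10968 genes tested in both and called under both scalings, 383 genes (3.49%) were higher and 1214 genes (11.1%) were lower at 24 weeks whichever 24-week matrix was used. These are 37.5% of the 1020 genes higher and 64.9% of the 1872 genes lower in the first comparison, and 29.1% of the 1315 higher and 34.5% of the 3515 lower in the other. A further 230 genes were higher with the cells labelled spleen and lower with those labelled graft, and 25 were lower and then higher. The rest of the first calls, 407 higher and 633 lower, were not called under both scalings in the other comparison. With plain totals alone, 272 of the 1020 higher genes were not called there and 365 were lower.

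Genes that were higher at 24 weeks with either matrix included Tcf7 (2.31 and 4.90), Ccr7 (1.91 and 5.31), Klf2 (1.16 and 3.77), Tsc22d3 (0.91 and 1.27), H2-T23 (1.44 and 0.98), Itgb7 (1.14 and 1.92), Cxcr4 (1.28 and 1.58), and Junb (1.09 and 0.37). Genes lower with either matrix included Gzmb, Prf1, Lag3, Itga1, Il2rb, Runx3, Zap70, Ptpn6, Mki67, Fcer1g, and Lyst. Gzmb was at 6.46, 2.51, and 1.56 CPM, Il2rb at 75.9, 86.8, and 102 CPM, and Itga1 at 3.63, 6.10, and 0.780 CPM in the cells labelled 24-week graft. Lyst, at 64.2, 66.8, and 73.8 CPM there, was close to the cells labelled 24-week spleen. Xcl1 (33.5, 49.5, and 16.6 CPM), Ccl4 (11.3, 15.4, and 4.94 CPM), Ifng (3.63, 6.82, and 2.86 CPM), Nr4a1 (10.1, 12.2, and 14.8 CPM), Nr4a3 (10.1, 7.18, and 11.4 CPM), Gzmk (3.23, 5.02, and 1.56 CPM), and Cd160 (33.9, 31.9, and 21.1 CPM) were lower in the cells labelled 24-week graft than in the 3-week graft. They were higher in the cells labelled 24-week spleen. Pdcd1 (0.807, 1.077, and 2.34 CPM), Cxcr6 (42.8, 40.2, and 29.1 CPM), and Tox (38.7, 47.0, and 46.5 CPM), which did not pass in the first comparison, were also lower in the cells labelled 24-week graft than in the 3-week graft.

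By list, the exchange turned the medians of the cytotoxic granule genes from -0.38 to -3.03 (14 of 14 lower with plain totals), of the inhibitory receptors from 0.13 to -6.15 (9 of 10 lower), of the residency genes from -0.17 to -3.87 (10 of 12 lower), and of the naive and central memory genes from 0.99 to 4.60 (13 of 13 higher). The median of all genes was -0.54 in that comparison, where 58.5% of all genes tested were lower and 13.4% higher with plain totals. In the libraries labelled 24-week graft, 3 inhibitory receptors (Cd244a, Havcr2, and Tigit), 2 granule genes (Gzmf and Gzmc), and 1 residency gene (Zfp683) were at or below 3 UMIs in every library. With these set to the worth of 3 UMIs, 1.02 CPM on average, the medians were -4.75 for the inhibitory receptors, -2.50 for the granule genes, and -3.81 for the residency genes. Interferon response genes (0.02 and 0.16), class I genes (0.07 and -0.21), and immediate early genes (0.24 and -0.15) differed less between the comparisons. Among shares of cells, 22 of 24 genes and pairs had no overlap after the exchange, 3 higher and 19 lower. Each had p = 0.0357 by the exact permutation test, the smallest possible and the same as in the first comparison. After adjustment this was 0.0390, lower than in the first comparison only because 22 rather than 14 items were at the smallest p. Shares over all genes were not counted for this comparison either. Of the 14 without overlap in the first comparison 12 kept their direction, and 2, Gzmk and Pdcd1 with Tcf7, turned.

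**Figure D4:**
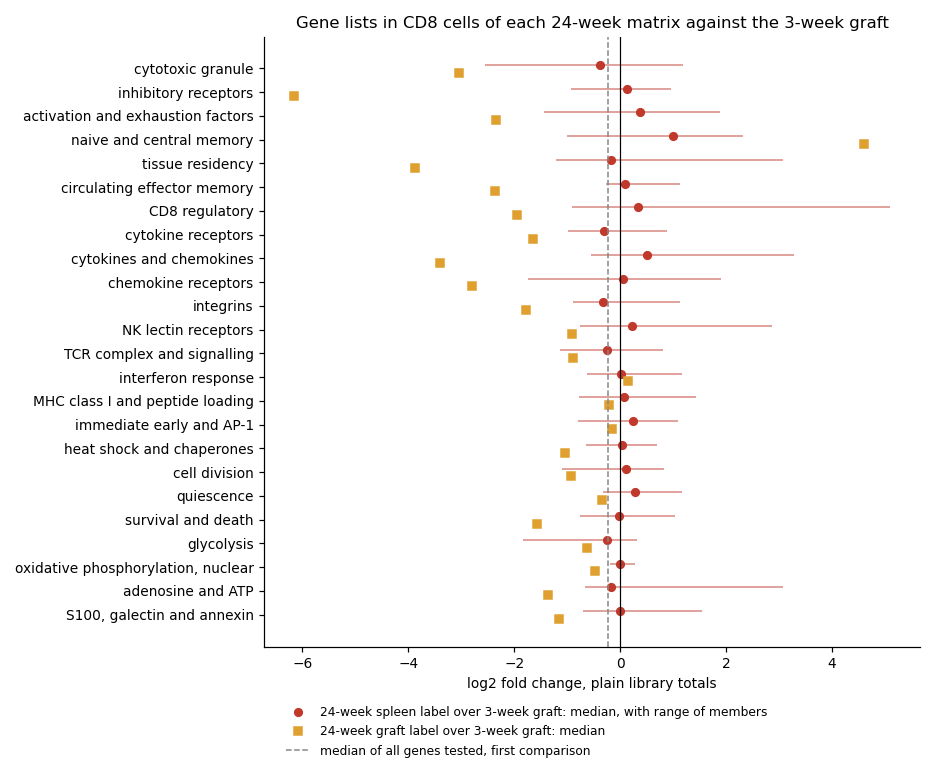
Median log2 fold change over the 3-week graft (plain library totals) of each gene list, for the cells labelled 24-week spleen (red circles, with lines from the lowest to the highest member) and for those labelled 24-week graft (orange squares). The dashed line is the median of all genes in the first comparison, -0.23, and the largest distance between a circle and a square is in the inhibitory receptors, at 0.13 and -6.15 (-4.75 with members at or below 3 UMIs set to that level).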

How the data were processed

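Single-cell UMI counts were deposited as 1 matrix per tissue, time, and cell class. Per the labels, the authors made them from droplet 3′ libraries with Cell Ranger on mm10, whose version and annotation are not given in the sources used here, and deposited cells under the label of CD8+ T cells. The limits of their filters on genes, UMIs, and mitochondrial share are not given either. A treatment of doublets is not given in the sources used here, no doublet caller was run, and cells with a UMI of Cd4, Cd79a, or Lyz2 were left out.

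From the deposited counts, UMIs of the cells kept were summed per library tag. Summed counts were tested with edgeR's quasi-likelihood test (edgeR 4.0.16, R 4.3.3) after filterByExpr, with plain library totals and Benjamini-Hochberg adjustment over all genes tested. TMM factors, DESeq2 (1.42.0), no filter, other totals, other cell filters, thinned libraries, removal of the shift with intron length, each library left out, and the exchanged 24-week matrix were alternatives. The rule of a call under both scalings was added after the data were seen. The fit was tested on simulated counts with known changes, with a spread between libraries that was set beforehand. It recovered 4% of changes of 1.25-fold, 42% of 1.5-fold, 94% of 2-fold, and 100% of 4-fold, with 7 false calls among 11131 genes. A gene that did not pass may therefore still differ by a small fold. Shares of cells were tested with exact permutation tests (scipy 1.17.1). Totals of 3023024 to 9624919 UMIs per library set the counting error, and standard errors of the log2 fold changes cover the spread between libraries. Each SE was derived from the test, as the absolute log2 fold change over the square root of its quasi-likelihood F. The spread in that F is moderated over all genes.

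The members and the 24 gene lists were chosen with earlier results of these data known. Named genes were the 10 largest and 10 smallest log2 fold changes among genes called, without overlap, and at a mean of at least 100 CPM in a group, outside mitochondrial, ribosomal, receptor, and unnamed genes. From each list came up to 4 called members with the largest changes and up to 2 uncalled members of the highest level. Genes the study names for these cells and members of marker lists that differed were added, and the text names fewer. Cd8a, Cd8b1, Cd4, Cd79a, and Lyz2 chose the cells and were not tested. Coordinates are those of GENCODE release 21 (GRCm38), matched by symbol and not necessarily the authors' annotation.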

Additional observations from a re-analysis of the deposited data

Results flagged for a closer look

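Among 119 values tested over the 5 libraries of the 3-week graft, 11 had 1 library apart from the other 4 by Dixon's 95% criterion, which chance gives in about 1 of 20. In 8 of the 11 the library apart was library 1. This library also had the most UMIs in its median cell, 2980 against 1964 to 2206 in the others. Its level was the highest for Lag3 (182 CPM), Tox (404 CPM), Ccr2 (57.4 CPM), H2-T23 (125 CPM), and Hspa8 (2163 CPM), and the lowest for Junb (662 CPM) and Hk2 (6.65 CPM). Without library 1, the log2 fold change of Lag3 was -0.58, the log2 fold change of Ccr2 was -1.50, the log2 fold change of H2-T23 was 1.56, the log2 fold change of Junb was 1.06, and the log2 fold change of Hk2 was -2.01. These calls held without it. Tox did not pass without it, as with all libraries (log2 fold change of Tox -0.17), and the log2 fold change of Hspa8 of 0.23 then passed. Library 1 was also the one graft library with a cell that held both Cx3cr1 and Klrg1 (0.0337% of its cells). Library 5 was highest for Nr4a1 (41.5 CPM), and the log2 fold change of Nr4a1 was 1.89 without it. Summed erythroid markers were at 69.0 CPM in library 2 and at most 0.862 CPM in the other 4, and summed endothelial markers were highest in library 4 at 0.823 CPM. The cause of these values was not tested.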

How the results depend on the processing

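The numbers of calls depended on the scaling. Genes higher at 24 weeks numbered 1077 with plain totals, 2100 with TMM factors, 1966 with DESeq2, and 2007 after removal of the shift with intron length, and genes lower numbered 4013, 1872, 1577, and 1851. Genes lower under both plain totals and TMM factors, a rule chosen after seeing the data, numbered 1872. With 1 library left out, 873 to 1172 genes were higher and 3164 to 4199 lower, and 4 to 5 shares were higher and 10 to 12 lower without overlap. No thinning gave 3 shares higher and 7 lower, 500 UMIs 4 and 9, and all cells of the matrices 4 and 11, against 4 and 10. With the 24-week tissue labels exchanged, 6557 genes and 19 shares were lower. DESeq2 did not call Gzma (log2 fold change of Gzma 1.13) or Hspa1b (log2 fold change of Hspa1b -0.41), and Gzma also did not pass with all cells of the matrices (0.79). The log2 fold change of Btg1 turned to 0.20 with TMM factors and 0.21 with DESeq2.

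With the labels exchanged the log2 fold change turned for Gzmk (-3.55), Gzma (-3.75), Ifng (-5.50), Cd160 (-1.72), Cd200r1 (-4.78), Maf (-1.32), Nr4a1 (-1.48), Nr4a3 (-2.75), P2rx7 (-0.68), Xcl1 (-3.39), Ccl5 (-3.13), Cd7 (-2.35), Tnfrsf4 (-1.95), Ccl4 (-6.35), Isg15 (-0.86), Ifi27l2a (-0.34), Dusp2 (-1.16), Dnaja1 (-0.27), Hsp90aa1 (-1.03), Hspa8 (-0.50), Bcl2a1b (-2.38), Gadd45b (-1.33), Hist1h2bc (-3.25), and Jchain (-2.16). These 24 genes are those that turned among the 85 named genes followed through the alternatives, and other genes were not listed. Their values are on plain totals, where the median of all genes was -0.54. With TMM factors as well, Ifi27l2a (0.17), Dnaja1 (0.24), and Hspa8 (0.0097) did not turn, and Maf (-0.82), P2rx7 (-0.18), and Isg15 (-0.35) turned without passing. The difference in the share of cells turned for Gzmk (-2.93 percentage points), Ifng (-13.9), Cx3cr1 (-0.953), Ly6c2 (13.3), and Pdcd1 with Tcf7 (-0.248). This setting sets other cells against the same graft libraries. The causes of the other changes were not tested.

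No paired analysis was possible because the library tags carry no label that pairs them. Levels near the worth of 3 UMIs (Il2, Foxp3, Klra9 in the 3-week graft, and Cd244a, Havcr2, Tigit, Gzmf, Gzmc, and Zfp683 in the cells labelled 24-week graft) are limited by depth. The list medians with such members set to 3 UMIs were added after seeing the data.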
